A study of Mus musculus with 18 samples.

Results

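Embryoid bodies of mouse embryonic stem cells labelled Pax7-/-, the notation for cells with no functional Pax7, were set against the undifferentiated Pax7-/- cells (day 7 against day 0). Here, without Pax7 refers to this label. Embryoid bodies are the floating aggregates in which stem cells begin to form derivatives of the germ layers. The comparison rested on 3 Pax7-/- arrays of day 0 and 3 of day 7, grouped by their titles, out of 18 Affymetrix arrays in the series. The question was which genes changed during this step without Pax7, and whether the step differed from that of Pax7+/+ cells. The Pax7+/+ groups set beside it had 3 arrays at each of the same days. The remaining 6 arrays, outgrowths of both genotypes at day 21, entered the fit to estimate the spread between samples. They also helped to set the correction for the array sets described below. With all arrays in the fit, this correction cancels in the Pax7-/- step, whose days hold the same mix of sets. The Pax7+/+ days hold unlike mixes, so the Pax7+/+ step and the difference between the steps depend on it. All cells came from an F1 cross of C57Bl6N and 129Sv. Day 0 cells of both genotypes grew in KO-DMEM with LIF. Embryoid bodies of both grew in KO-DMEM without LIF and with RA (retinoic acid) and ITS added. Each title calls its array a biological replicate. How the Pax7 allele was altered, whether each genotype was 1 clone and how the replicates were separated was not given in the sources used here, so p-values measure only the spread between these samples.

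Pax7 encodes a transcription factor with a paired domain and a homeodomain, known from satellite cells of muscle and from neural crest. Mouse embryonic stem cells are held in the naive pluripotent state by LIF, which acts through Stat3, and by a network around Pou5f1, Sox2 and Nanog. When aggregates are left without LIF this network is shut down, the outer cells form primitive endoderm, and that layer lays down a basement membrane of laminin and type IV collagen. Retinoic acid acts through nuclear receptors on genes such as Cyp26a1, the Hox genes and the Meis genes.

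Values were log2 intensities. The arrays fell into 2 sets by their spread: over all probe sets the SD was 1.37 to 1.45 log2 on 10 arrays, called narrow here, and 1.79 to 1.85 log2 on the other 8, called wide. On both days the Pax7-/- replicates 1 and 3 were narrow and replicate 2 was wide, so that the day 7 minus day 0 change could be read on 2 against 2 narrow arrays and on 1 against 1 wide array. A change is given as log2 ± SE from limma with the array set as a block, followed where needed by the narrow and the wide value. A gene passed, and is said to have risen or fallen, at a Benjamini-Hochberg adjusted p under 0.05 over 22180 genes. The Pax7 probe set read 6.37, 4.76 and 6.02 log2 at day 0 and 6.32, 4.99 and 5.86 log2 at day 7 in replicates 1 to 3, a change of 0.01 ± 0.23 (adjusted p = 0.988). In Pax7+/+ cells it read 6.06, 6.22 and 4.79 log2 at day 0 and 6.35, 4.68 and 5.09 log2 at day 7. The Pax7 reading did not separate the genotypes, and it checks no label, since the position of its probes relative to the mutation was not given in the sources used here. The day labels were set against stem cell markers. Nanog, Sox2 and Sall4 lay at or above the 98th percentile of their array's genes on all 3 day 0 arrays, and Pou5f1 lay between the 81.6th and the 92.6th. At day 7 Nanog lay between the 89th and the 96.6th, Sox2 between the 91.8th and the 97.4th, and Sall4 between the 93.5th and the 96th. Pou5f1 then lay between the 65.1th and the 85.9th, which overlaps day 0. This is a weak check, and Nanog, Sox2 and Pou5f1 are also among the falls reported below.

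Between day 0 and day 7, 857 of 22180 genes passed, which is 3.86% of those tested. Of these, 454 rose (2.05%) and 403 fell (1.82%). A change of 2-fold or more was reached by 228 of them (1.03%), 126 upward and 102 downward, and 4-fold by 14 upward and 9 downward. Among the largest falls were genes of the naive pluripotent state (Nr0b1, Jam2, Nanog), and among the largest rises genes of endoderm and basement membrane (Afp, Lama1), imprinted genes (Peg3) and retinoic acid response genes (Cyp26a1). The call rests on treating the array set as a block: without it no gene passed and 354 had an unadjusted p under 0.05, with the set as a random block 532 passed, and with a mean for each group and set 4072 passed. Without the wide array of day 0 (replicate 2), 429 genes passed; without day 7 replicate 1, 2 or 3 the counts were 476, 506 and 530. Of the 857 genes, 856 changed in the same direction on narrow and on wide arrays, against 60.6% of all genes tested. Both sets entered the fit, so this count describes the genes and is no separate test. The change was larger on the wide arrays for 488 of them and larger on the narrow arrays for 369. Of all 22180 genes tested, 6496 had day 0 and day 7 arrays that were apart within each array set. The largest rises and falls named below were drawn from passing genes that were apart in this way. A lack of overlap given below for single genes therefore describes them and is no separate test. How many of all genes showed no overlap across the sets was not counted.

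**Figure D1:**
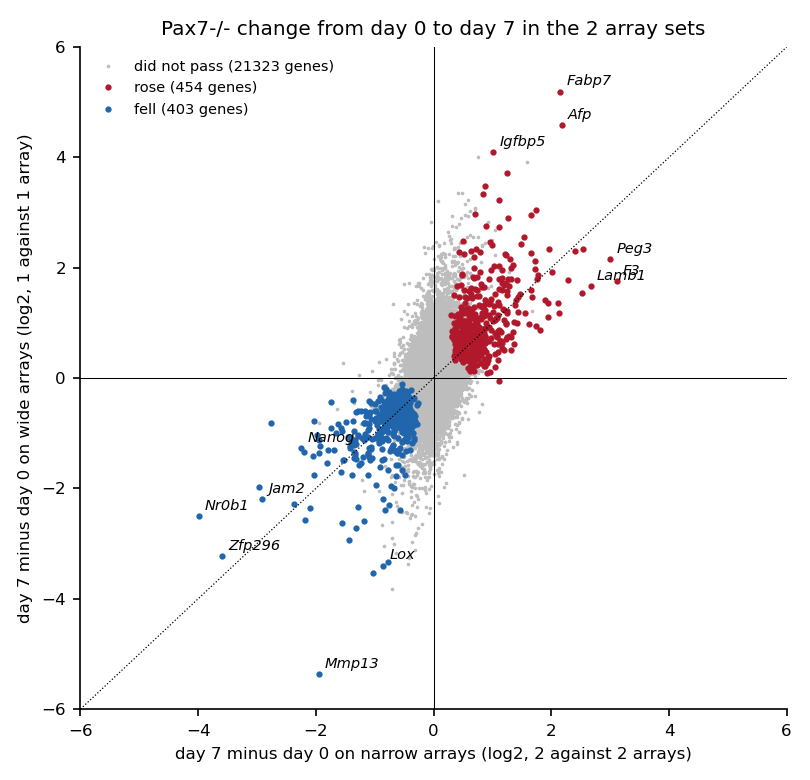
Each point is a gene, with its Pax7-/- change from day 0 to day 7 on narrow arrays (2 against 2, log2) on the x axis and on wide arrays (1 against 1, log2) on the y axis. Red points rose (454) and blue points fell (403). Fabp7 and Afp lie far above the dotted line of equal change, at 5.19 and 4.59 on wide arrays against 2.15 and 2.18 on narrow ones, and Nr0b1 and Peg3 changed more on narrow arrays.

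Of the promoters of the changed genes, 4 are shown because each belongs to a gene described in its own group below and holds the site of a factor known for that group. They are RefSeq windows of the 250 bases before the start of the gene, plus strand of GRCm38.p6. Genes and motifs were chosen after the values had been seen. Capitals mark the match. For Nanog, chr6:122707239-122707488, it is the composite Oct-Sox element (CATTGT and ATGC with 1 base between, here on the other strand), whose capitals begin 72 bases before the more upstream of its 2 RefSeq starts. For Zfp296, chr7:19577037-19577286, it is the octamer ATTTGCAT bound by Pou5f1, beginning 111 bases before the start. For Cyp26a1, chr19:37697558-37697807, it is a DR5 retinoic acid response element on the other strand, beginning 32 bases before the start. For Afp, chr5:90490464-90490713, it is an HNF1 site, beginning 105 bases before the start.
Nanog: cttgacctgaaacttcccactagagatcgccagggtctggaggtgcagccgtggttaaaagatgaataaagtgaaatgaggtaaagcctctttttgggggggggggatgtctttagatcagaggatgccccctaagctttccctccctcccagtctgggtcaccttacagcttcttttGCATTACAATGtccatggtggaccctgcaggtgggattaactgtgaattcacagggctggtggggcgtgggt
Zfp296: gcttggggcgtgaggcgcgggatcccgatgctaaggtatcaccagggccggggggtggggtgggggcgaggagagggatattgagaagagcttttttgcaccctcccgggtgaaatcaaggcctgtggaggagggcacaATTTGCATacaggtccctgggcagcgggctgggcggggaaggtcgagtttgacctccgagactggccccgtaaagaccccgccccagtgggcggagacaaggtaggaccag
Cyp26a1: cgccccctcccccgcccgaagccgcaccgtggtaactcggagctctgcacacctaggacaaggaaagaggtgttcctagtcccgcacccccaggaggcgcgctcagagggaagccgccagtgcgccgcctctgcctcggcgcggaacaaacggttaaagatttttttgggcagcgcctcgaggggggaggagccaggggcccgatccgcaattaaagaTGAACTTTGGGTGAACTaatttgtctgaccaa
Afp: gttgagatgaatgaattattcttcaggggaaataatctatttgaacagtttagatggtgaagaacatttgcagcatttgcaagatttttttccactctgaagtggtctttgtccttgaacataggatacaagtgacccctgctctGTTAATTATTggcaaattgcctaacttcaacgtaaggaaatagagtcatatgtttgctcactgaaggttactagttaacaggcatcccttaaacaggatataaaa
Both strands were searched, over the 16918 tested genes with such a window. The octamer stood in 1.75% of these windows, in 2.21% of the 362 windows of genes that rose and in 1.83% of the 327 windows of genes that fell. The Oct-Sox composite stood in 9 windows in all, of which 1 was of a gene that fell, Nanog itself. The DR5 element stood in 12 windows, of which 1 was of a gene that rose, Cyp26a1. The HNF1 site stood in 0.431% of all windows, in 0.552% of those of genes that rose and in none of those of genes that fell. The GATA site AGATAA, also searched, stood in 10.3% of all windows, in 4.42% of those of genes that rose and in 5.5% of those of genes that fell. A match is a string of letters and shows no binding.

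Of 29 naive pluripotency genes measured, 16 fell, none rose and 13 did not pass, with a median change of -1.09 log2 (-1.0 on narrow, -1.26 on wide arrays) against -0.02 over all genes tested. In RNA of whole cultures, fewer cells of a type and less RNA per cell cannot be told apart. Nr0b1, an orphan nuclear receptor of the pluripotency network, read 9.45, 10.7 and 9.72 log2 at day 0 and 5.43, 8.19 and 5.75 log2 at day 7, in the order of replicates 1, 2 and 3. All day 7 arrays lay below all day 0 arrays. The change of -3.50 ± 0.44 log2 is an 11.3-fold fall (adjusted p = 0.000213), the largest in size of any gene tested in the blocked fit. Zfp296, a zinc finger protein of stem cells whose promoter is shown above, read 9.61, 10.37 and 9.44 log2 at day 0 and 5.74, 7.14 and 6.13 log2 at day 7. It fell 11.1-fold (-3.47 ± 0.27 log2, adjusted p = 2.64e-06), with like values on narrow (-3.59) and wide (-3.23) arrays and no overlap. Nanog, a homeobox factor of the core network whose promoter is shown above, read 9.47, 10.31 and 9.43 log2 and then 6.67, 9.04 and 7.72 log2. It fell 3.80-fold (-1.92 ± 0.32 log2, adjusted p = 0.00246), by 2.25 on narrow and 1.27 on wide arrays, and the groups did not overlap.

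Jam2, a junctional adhesion molecule listed with the naive genes, read 8.52, 10.02 and 8.48 log2 at day 0 and 5.41, 7.81 and 5.75 log2 at day 7, a 6.39-fold fall (-2.68 ± 0.17 log2, adjusted p = 8.41e-07). Tdgf1, the Nodal co-receptor Cripto, fell by 1.84 ± 0.30 log2, and Zfp42 (Rex1), a marker of the naive state, fell by 1.72 ± 0.37. Zfp42 lost its call without day 0 replicate 2 or day 7 replicate 1 (adjusted p = 0.0798 and 0.0881). Sox2 and Pou5f1, the core factors, were added to the named genes after their values had been seen. Sox2 read 8.79, 10.22 and 8.92 log2 at day 0. It fell by 1.37 ± 0.20 log2 (adjusted p = 0.000881), and at day 7 it still read 6.90, 8.95 and 7.96 log2, at or above the 91.8th percentile of each array. Pou5f1 read 6.98, 7.43 and 6.98 log2 at day 0 and 6.26, 6.06 and 6.49 log2 at day 7, with no overlap. Its fall of 0.86 ± 0.19 log2 (adjusted p = 0.015) was lost without day 0 replicate 2 or day 7 replicate 1 or 2 (adjusted p = 0.102, 0.063 and 0.0824). Klf4 fell by 1.34 ± 0.16 log2 and Klf5 by 1.31 ± 0.28, both Krüppel-like factors downstream of LIF. Klf5 was not called without day 0 replicate 3 or day 7 replicate 1 or 2 (adjusted p = 0.0536, 0.0617 and 0.0645). Esrrb, another member, had a change of -1.18 ± 0.33 log2 that did not pass (adjusted p = 0.0616).

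Of 8 genes for enzymes that remove or place DNA methylation, or for their cofactors, 3 fell and none rose. The dioxygenase Tet2 read 8.35, 9.97 and 8.12 log2 at day 0 and 6.07, 8.62 and 6.51 log2 at day 7 (-1.75 ± 0.17, adjusted p = 1.55e-05). Tet1 fell by 1.39 ± 0.15 log2 on both sets alike (-1.36 narrow, -1.45 wide). Dnmt3l, a cofactor of the de novo methyltransferases, fell by 1.2 ± 0.28 log2, a call lost in 5 of the 6 fits that left out 1 Pax7-/- array. Of Polycomb and other chromatin regulators, 5 of 18 fell, led by Jarid2 (-1.36 ± 0.16 log2) and Eed (-1.26 ± 0.13), both of Polycomb repressive complex 2. The architectural protein Hmga2, also of that list, rose by 1.05 ± 0.13 log2. Among FGF and ERK feedback genes 4 of 20 fell and none rose. Spry4, an inhibitor of receptor tyrosine kinase signalling, led them at 8.83, 10.49 and 8.86 log2 and then 6.72, 7.91 and 6.59 log2 (-2.32 ± 0.30, adjusted p = 0.000234).

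**Figure D2:**
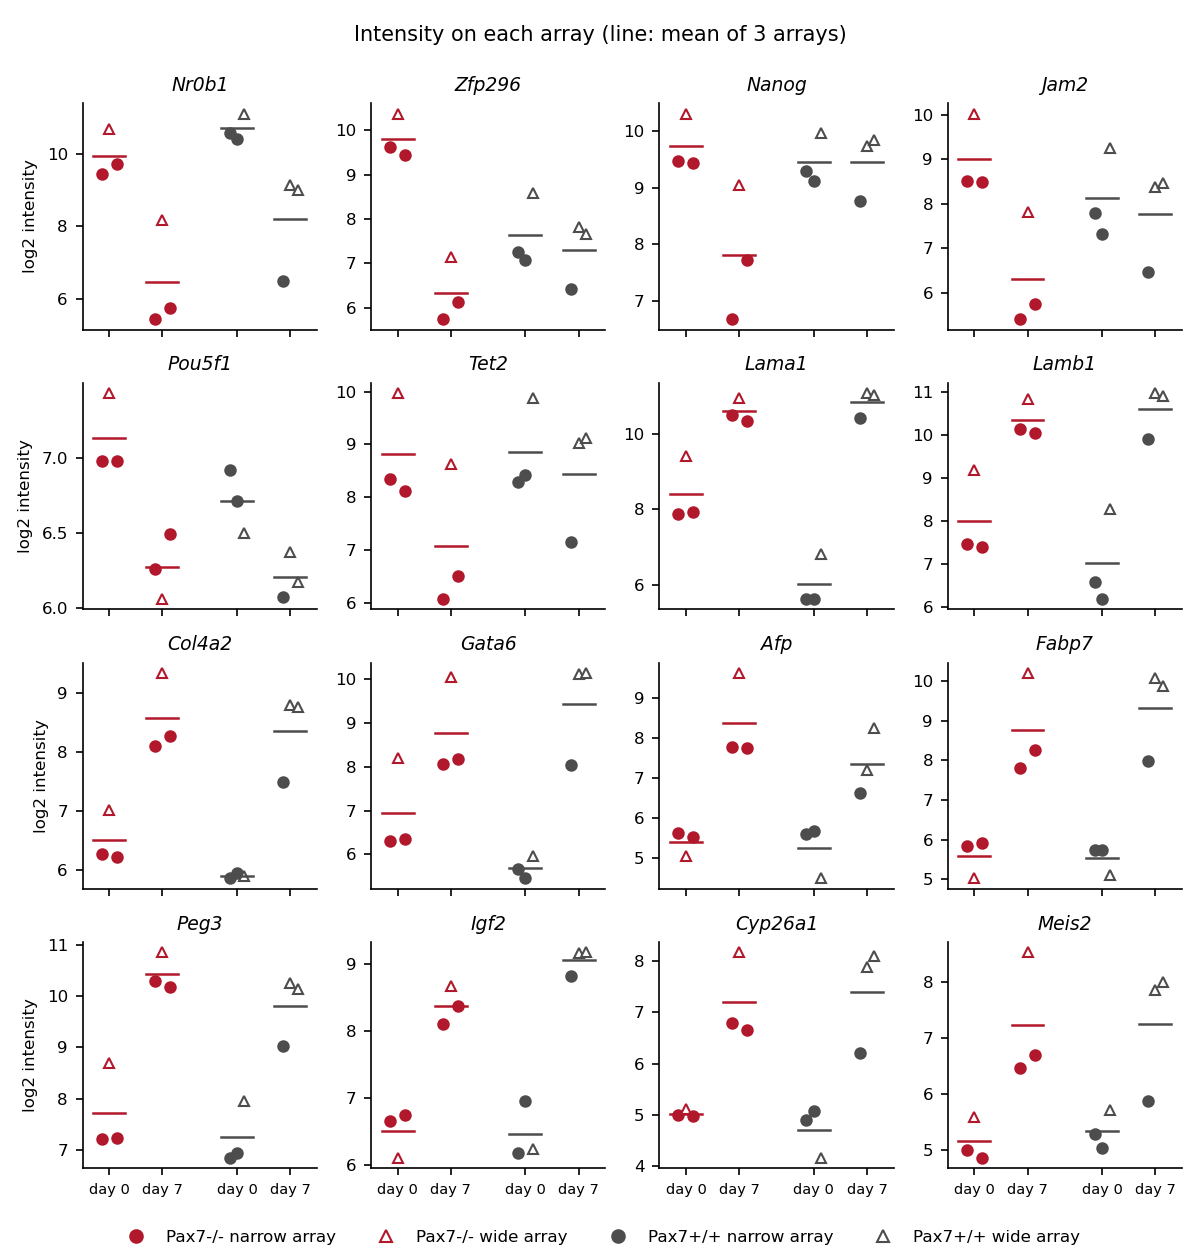
Log2 intensity of 16 genes on each array, with days on the x axis, Pax7-/- in red and Pax7+/+ in grey, filled circles for narrow and open triangles for wide arrays, and a line at the mean of 3 arrays. In Pax7-/- the day 7 arrays of Nr0b1, Zfp296, Nanog, Jam2 and Pou5f1 lie below all day 0 arrays, and those of Lama1, Lamb1, Col4a2, Afp, Fabp7, Peg3, Igf2, Cyp26a1 and Meis2 above them; for Tet2 and Gata6 the groups overlap across the sets and are apart within each.

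Genes of parietal endoderm and basement membrane rose, 11 of 17 measured with none fallen, and their median change was 1.48 log2 (1.26 narrow, 1.30 wide). The 3 chains of laminin-111 rose together. Lamb1 read 7.46, 9.18 and 7.39 log2 at day 0 and 10.15, 10.85 and 10.05 log2 at day 7, a 5.06-fold rise (2.34 ± 0.22 log2, adjusted p = 1.46e-05). Lama1 read 7.87, 9.41 and 7.93 log2 and then 10.49, 10.96 and 10.34 log2, a 4.58-fold rise (2.20 ± 0.20 log2, adjusted p = 1.22e-05). Lamc1 rose 3.17-fold (1.66 ± 0.18 log2). For all 3 chains every day 7 array lay above every day 0 array, which describes these genes and is no separate test. The type IV collagen genes Col4a1 and Col4a2, whose starts lie 21 bases apart on opposite strands in RefSeq, rose by 1.86 ± 0.28 and 2.08 ± 0.26 log2. Col4a2 read 6.27, 7.01 and 6.21 log2 at day 0 and 8.11, 9.35 and 8.28 log2 at day 7. Serpinh1, the collagen chaperone HSP47 and also of this list, rose by 1.42 ± 0.13 log2. P4ha1, a subunit of the collagen-modifying prolyl 4-hydroxylase, rose by 1.86 ± 0.22 log2. Lox, which cross-links collagen, fell by 1.71 ± 0.44 log2 (adjusted p = 0.0402), a call lost in 5 of the 6 fits that left out an array. Tinagl1, a matrix glycoprotein, rose by 1.99 ± 0.15 log2 to 9.26, 10.17 and 9.07 log2.

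Of 13 endoderm transcription factors 1 rose. Gata6, the factor that specifies primitive endoderm, read 6.30, 8.20 and 6.36 log2 at day 0 and 8.06, 10.06 and 8.17 log2 at day 7 (1.81 ± 0.27, adjusted p = 0.000957). It changed by 1.78 on narrow and 1.86 on wide arrays, the groups being apart within each set and overlapping across them. The other 12 factors were not called, among them Sox17 (0.73 ± 0.31 log2, adjusted p = 0.25) and Foxa2 (0.47 ± 0.36, adjusted p = 0.541). The median of the list was 0.15 log2 on narrow arrays and 1.12 on the wide pair.

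Visceral endoderm and fetal liver products rose in 5 of 28 cases and fell in none, and 26 of the 28 changes were positive. Afp, the fetal serum protein alpha-fetoprotein whose promoter is shown above, read 5.62, 5.04 and 5.53 log2 at day 0 and 7.77, 9.63 and 7.74 log2 at day 7. It rose 7.93-fold (2.99 ± 0.62 log2, adjusted p = 0.0113), by 2.18 on narrow and 4.59 on wide arrays. The Afp call was lost without either wide array (adjusted p = 0.0884 without day 0 replicate 2 and 0.0771 without day 7 replicate 2). Apoa1, the main protein of high density lipoprotein, rose by 2.07 ± 0.52 log2 (1.43 without day 0 replicate 2), a call lost in 5 of the 6 fits that left out an array. Dab2, an endocytic adaptor of visceral endoderm, rose by 1.49 ± 0.15 log2 with nearly equal values on both sets (1.47 narrow, 1.53 wide). Tfpi, the inhibitor of the tissue factor pathway, rose by 1.15 ± 0.12. The remaining call, Lrp2, was lost without any 1 of the 6 arrays (adjusted p = 0.084 to 0.169). Members that did not pass included Apob (2.36 ± 0.74 log2, adjusted p = 0.0936), Cubn (1.52 ± 0.43, adjusted p = 0.0612) and Ttr (1.5 ± 0.45, adjusted p = 0.0776). The list's median of 0.62 log2 was 0.24 on narrow and 1.25 on wide arrays.

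Outside the lists the largest rises included further surface and secreted proteins. F3, tissue factor, read 6.74, 8.93 and 6.83 log2 at day 0 and 10.02, 10.68 and 9.77 log2 at day 7, a 6.31-fold rise (2.66 ± 0.23 log2, adjusted p = 7.44e-06) with no overlap. Car4, a membrane-bound carbonic anhydrase, rose by 2.48 ± 0.34 log2, and Gpc3, a glypican of the cell surface, by 2.37 ± 0.24. Both had like values on narrow and wide arrays (Car4 2.54 and 2.34, Gpc3 2.4 and 2.31).

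Retinoic acid response genes rose in 6 of 21 cases and fell in 1, with a median change of 0.68 log2 (0.36 narrow, 1.13 wide). Cyp26a1, the enzyme that degrades retinoic acid and whose promoter is shown above, read 4.99, 5.12 and 4.97 log2 at day 0 and 6.79, 8.17 and 6.65 log2 at day 7. It rose 4.53-fold (2.18 ± 0.37 log2, adjusted p = 0.0029), and every day 7 array lay above every day 0 array. Meis2, a TALE homeobox cofactor of Hox proteins, read 5.0, 5.59 and 4.85 log2 and then 6.47, 8.54 and 6.70 log2 (2.09 ± 0.30, adjusted p = 0.000637). Its relative Meis1 rose by 1.81 ± 0.39 log2 (1.11 narrow, 3.23 wide), without either wide array no longer passing (adjusted p = 0.0917 and 0.0956). Dhrs3, a retinaldehyde reductase, rose by 1.48 ± 0.28 log2. The receptor Rarg was the one that fell, by 0.95 ± 0.23. Of 27 Hox genes 4 rose and none fell, and 25 changes were positive, against 10401 of the 22180 genes tested. The Hox median was 0.35 log2, with 0.22 on narrow arrays and 0.86 on the wide pair. The wide pair also gave the higher median in the cardiac list, of which no gene passed (0.06 narrow, 0.66 wide). Hoxb9, a posterior Hox gene, read 6.50, 5.73 and 6.50 log2 at day 0 and 7.47, 7.76 and 7.74 log2 at day 7 (1.41 ± 0.23, adjusted p = 0.00198). The other Hox calls, Hoxa4 (1.06 ± 0.24 log2), Hoxb4 (0.81 ± 0.22) and Hoxa3 (0.52 ± 0.12), were each lost without day 0 replicate 2 (adjusted p = 0.15, 0.295 and 0.121), and that of Hoxa3 without any of the 6 arrays.

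Imprinted genes changed in 11 of 21 cases, 8 up and 3 down. Peg3, a zinc finger protein made from the paternal allele, read 7.22, 8.70 and 7.24 log2 at day 0 and 10.29, 10.85 and 10.17 log2 at day 7. Its rise was 6.59-fold (2.72 ± 0.18 log2, adjusted p = 8.41e-07), with no overlap. Igf2, the paternally expressed fetal growth factor, read 6.66, 6.10 and 6.75 log2 and then 8.10, 8.67 and 8.37 log2, a 3.66-fold rise (1.87 ± 0.29 log2, adjusted p = 0.00139). Maternally expressed members moved in both directions. Rian, a non-coding RNA of the Dlk1-Dio3 region, rose by 1.42 ± 0.25 log2, and Grb10, an adaptor that restrains insulin and IGF receptors, fell by 1.51 ± 0.29. Igf2r, the receptor that clears Igf2, read 6.51, 8.48 and 6.72 log2 and then 6.11, 7.18 and 5.91 log2. Its fall of 0.84 ± 0.18 log2 (adjusted p = 0.0166) was lost without day 0 replicate 2 or 3 or day 7 replicate 2 (adjusted p = 0.101, 0.0515 and 0.112). In the IGF list 6 of 15 rose and 1 fell. It shares Igf2 and Igf2r with the imprinted list. Igfbp5, an IGF binding protein, rose by 2.04 ± 0.49 log2 but by 1.01 on narrow and 4.09 on wide arrays, and was no longer called without day 0 replicate 2 or day 7 replicate 2 or 3 (adjusted p = 0.116, 0.162 and 0.0633). Without day 0 replicate 2 its change was 1.2 log2. Igfbp4 rose by 1.40 ± 0.16 log2 (1.23 narrow, 1.73 wide).

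Of 484 microRNA genes on the array 1 passed, Mir382, which lies in the same imprinted region as Rian. Of its 2 mature strands in RefSeq, 5p and 3p, the 5p strand is shown. It lies at chr12:109733781-109733802 on the plus strand of GRCm38.p6, with the seed (bases 2 to 8) in capitals.
mmu-miR-382-5p: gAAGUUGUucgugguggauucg
The probe set reads RNA of the hairpin's locus and not the mature microRNA. It gave 4.76, 5.16 and 5.11 log2 at day 0 and 5.45, 7.44 and 5.30 log2 at day 7. The change of 1.05 ± 0.28 log2 (adjusted p = 0.0456) came to 0.44 on narrow and 2.28 on wide arrays, and the call was lost in 4 of the 6 fits that left out an array (highest adjusted p = 0.287).

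Genes of differentiated neural, mesodermal and muscle cells mostly did not pass. Of 23 neural progenitor genes only Fabp7 rose. This lipid binding protein of radial glia read 5.85, 5.02 and 5.91 log2 at day 0 and 7.80, 10.21 and 8.26 log2 at day 7, a rise of 3.16 ± 0.61 log2 (8.96-fold, adjusted p = 0.00689). The rise was 2.15 on narrow and 5.19 on wide arrays, and 2.31 without day 0 replicate 2. In the blocked fit it was the largest of any gene tested, while on narrow arrays F3 (3.11) and Peg3 (3.0) rose by more. The neural progenitor factors Sox1 and Pax6 changed by 0.01 ± 0.25 and 0.16 ± 0.18 log2 and were not called. Of 21 neuron genes 3 fell, among them Stmn2, a tubulin binding protein (-2.19 ± 0.17 log2), and none rose. Of 9 Pax family genes none passed, and Pax3 changed by 0.28 log2 (adjusted p = 0.65). In the paraxial mesoderm and myogenic list 1 of 23 passed, Mef2a (0.62 ± 0.12 log2), and the sarcomere list had 1 of 30, Tpm1 (0.79 ± 0.13). Myod1 read 6.14, 4.38 and 6.19 log2 and then 6.18, 4.66 and 5.89 log2, a change of 0.01 ± 0.14. None of 16 cardiac and none of 21 endothelial and blood genes passed; the smallest adjusted p in these lists were 0.0612 for Tbx5 and 0.0831 for Flt1. Of 21 primitive streak genes 1 fell, the ligand Nodal (-1.08 ± 0.21 log2, not called without day 0 replicate 2, adjusted p = 0.0604), and none rose. These lists thus held shares of passing genes near or below the 3.86% of all genes, apart from the neuron list with 14.3%.

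Of 20 DNA replication genes 9 fell and all 20 changes were negative, with a median of -0.43 log2 (-0.28 narrow, -0.62 wide). Several of these calls were not firm. Those of Mcm3, Mcm5 and Mcm7 were lost without day 7 replicate 1 (adjusted p = 0.171, 0.156 and 0.191), among other arrays. Pcna, the sliding clamp of DNA polymerase, read 8.97, 9.81 and 8.93 log2 and then 7.97, 9.10 and 8.29 log2 (-0.79 ± 0.15, adjusted p = 0.00572). The helicase subunit Mcm4 fell by 0.87 ± 0.18 log2, not called without day 0 replicate 3 or day 7 replicate 1 (adjusted p = 0.0502 and 0.0813). None of 19 mitosis genes passed. Of 19 nucleolar genes 5 fell, all 19 changes being negative, and of 15 ribosomal protein genes none passed. The nucleolar calls of Gnl3, Dkc1 and Bop1 were lost in 4, 3 and 2 of the 6 fits that left out an array. That of Myc was lost without either wide array (adjusted p = 0.078 and 0.0764). Mdm2, the ubiquitin ligase of p53, fell by 1.36 ± 0.16 log2 and was the only one of 18 p53 targets called. In the hypoxia and glycolysis list 6 of 21 rose and none fell, among them the P4ha1 named above, the triosephosphate isomerase Tpi1 (1.01 ± 0.14 log2) and the oxygen sensor Egln3 (1.74 ± 0.37, 0.87 narrow and 3.48 wide). Egln3 was not called without either wide array (1.12 log2, adjusted p = 0.0569, without day 0 replicate 2, and adjusted p = 0.0991 without day 7 replicate 2).

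**Figure D3:**
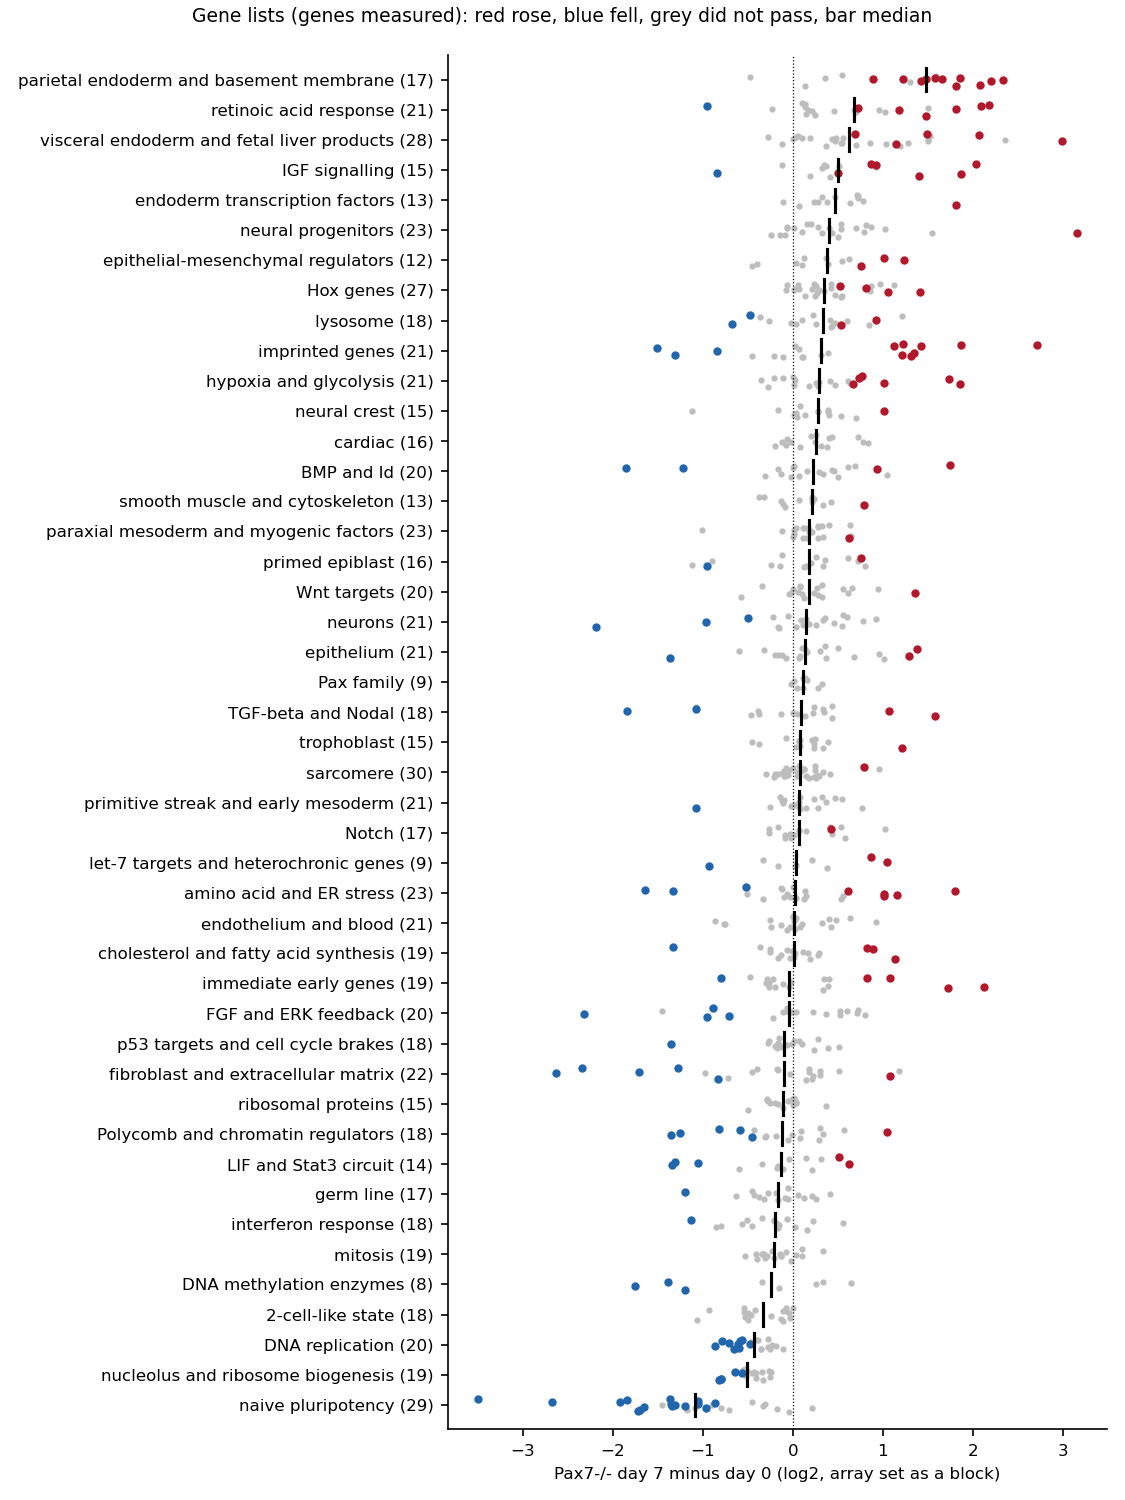
Each point is a measured gene of 1 of 45 lists, at its Pax7-/- change from day 0 to day 7 (log2, array set as a block); rows are lists with the number measured, ordered by their median (black bar), and points are scattered vertically for legibility only. Basement membrane (median 1.48) and naive pluripotency (-1.09) stand at the ends, and most lists of differentiated cells lie near 0 with grey points that did not pass.

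Fibroblast and extracellular matrix genes moved in both directions, 5 of 22 down and 1 up, with a median of -0.10 log2 (0.06 narrow, -0.12 wide). Bgn, the matrix proteoglycan biglycan, read 9.84, 10.6 and 9.74 log2 at day 0 and 6.94, 8.63 and 6.71 log2 at day 7, a 6.21-fold fall (-2.63 ± 0.32 log2, adjusted p = 0.000158). Thbs1, thrombospondin 1, read 8.27, 10.13 and 8.67 log2 and then 6.23, 7.84 and 5.98 log2, a 5.07-fold fall (-2.34 ± 0.18 log2, adjusted p = 2.42e-06). Mmp13, a collagenase outside the list, fell by 3.09 ± 0.62 log2 (-1.95 narrow, -5.36 wide), not called without day 7 replicate 2 (adjusted p = 0.0619) and at -2.13 without day 0 replicate 2. The gelatinase Mmp2 rose by 1.08 ± 0.17 log2. The mean over the 22 genes was 6.55, 7.10 and 6.47 log2 on the Pax7-/- day 0 arrays and 6.19, 6.70 and 6.22 log2 on those of day 7. On the Pax7+/+ arrays it was 7.15, 7.05 and 7.92 log2 at day 0 (replicate 3 wide) and 6.05, 6.33 and 6.23 log2 at day 7 (replicates 2 and 3 wide). Among genes of this list Lum lay between the 8.1th and the 27th percentile of the Pax7-/- arrays over both days. Col1a1 lay between the 77.2th and the 93.5th, and Col1a2 between the 70.6th and the 89.6th. Bgn lay between the 89.2th and the 99.7th, and Thbs1 between the 75.1th and the 99.2th. For comparison, Myod1 lay between the 39.6th and the 80.5th. The part of fibroblast-like cells in these falls was not tested.

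The same step in Pax7+/+ cells called 1261 genes (5.69%). Of the 857 genes that passed in Pax7-/-, 755 had the same sign in Pax7+/+ and 369 also passed there in that direction, while 10 passed in the opposite direction. A test of the difference between the steps passed for 107 of 22180 genes (0.482%), with 73 more positive in Pax7-/- and 34 more negative. Without the array set as a block 0 genes passed this test and 184 had an unadjusted p under 0.05, and with the set as a random block 62 passed. Leaving out 1 array gave 49 to 213 genes, the highest without Pax7+/+ day 7 replicate 1 and the lowest without its replicate 3. The share of more positive genes, 68.2%, was 47.4% without that replicate 1 and 56.3% when each array was scaled to the same SD. The genotypes stood further apart at day 0 than at day 7 for 71 of the 107 genes, and for 56 of the 73 that were more positive in Pax7-/-. Neither this count nor that of the 755 genes of the same sign was made over all genes tested. They therefore do not set these genes apart from the rest.

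**Figure D4:**
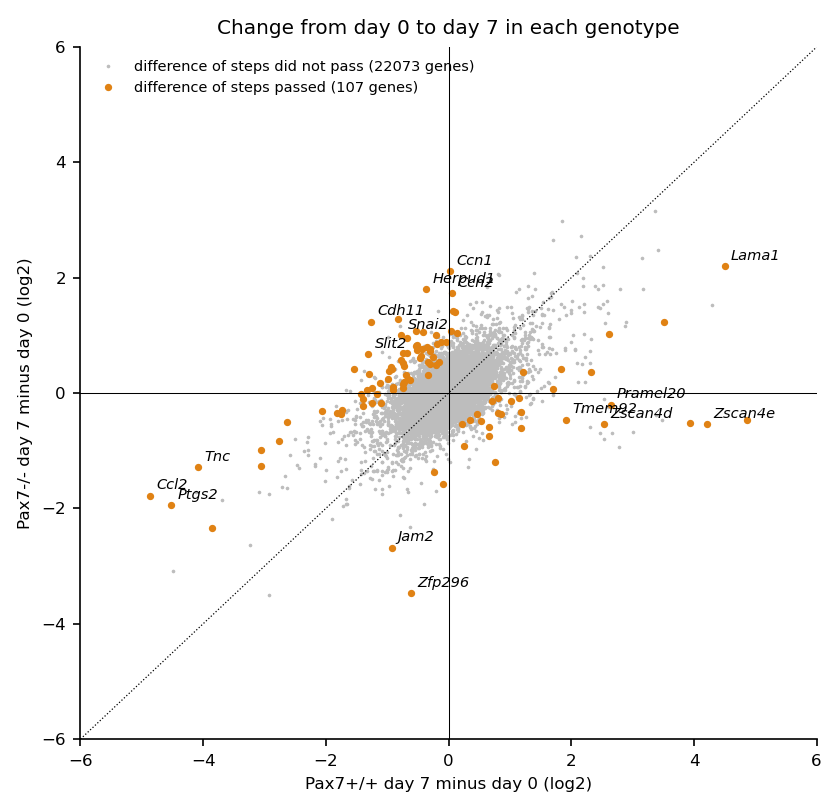
Each point is a gene, with its change from day 0 to day 7 in Pax7+/+ (log2) on the x axis and in Pax7-/- (log2) on the y axis; orange points passed the test of the difference between steps (107). Ccn1, Ccn2, Cdh11 and Herpud1 lie above the dotted line of equal change, Zfp296 and Jam2 below it on the side of falls, and Lama1, with 2.20 in Pax7-/- and 4.50 in Pax7+/+, below it on the side of rises.

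In Pax7+/+ cells 9 of the 29 naive pluripotency genes fell and 1 rose. The median change was -1.09 log2 in Pax7-/- and -0.59 in Pax7+/+, and the difference passed for 2 of its 29 genes, Fbxo15 and Jam2. Zfp296, outside the list, read 7.26, 7.08 and 8.58 log2 at day 0 and 6.43, 7.81 and 7.66 log2 at day 7 in Pax7+/+. Its step differed by -2.86 ± 0.39 log2 (adjusted p = 0.0023), and the Pax7-/- cells were 2.17 log2 higher at day 0 and 0.69 lower at day 7. Fbxo15, an F-box protein of stem cells and named after its values were seen, fell by 1.2 ± 0.13 log2 in Pax7-/- and rose by 0.75 log2 in Pax7+/+ (adjusted p = 0.00273), a difference of -1.95 ± 0.19 (adjusted p = 0.00016). For Nanog the difference of -1.52 ± 0.46 log2 did not pass (adjusted p = 0.226).

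Of the 17 basement membrane genes 14 rose in Pax7+/+, where the median was 1.41 log2, and 3 passed the test of the difference, all more negative in Pax7-/-. Lama1 started higher without Pax7: in Pax7+/+ it read 5.62, 5.62 and 6.82 log2 at day 0, below every Pax7-/- array of that day, and 10.41, 11.08 and 11.04 log2 at day 7. The genotypes were 2.38 log2 apart at day 0 and 0.08 apart at day 7, and the step differed by -2.30 ± 0.28 log2 (adjusted p = 0.0014). Srgn, the proteoglycan serglycin, showed the same order, 2.07 log2 higher in Pax7-/- at day 0 and -0.21 at day 7 (step difference -2.29 ± 0.22 log2, adjusted p = 0.00016). For Gata6 the difference of -1.36 ± 0.39 log2 did not pass (adjusted p = 0.188).

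The genes more positive in Pax7-/- included the following, and other matrix and adhesion genes (Lama1, Srgn, Jam2) were more negative. Ccn1 (Cyr61) and Ccn2 (Ctgf), secreted matricellular proteins, are targets of the YAP pathway. Ccn1 read 6.39, 8.56 and 6.50 log2 at day 0 and 8.43, 10.34 and 9.05 log2 at day 7 in Pax7-/-, and 7.63, 7.11 and 9.40 log2 and then 7.16, 9.48 and 9.47 log2 in Pax7+/+. It rose 4.36-fold without Pax7 (2.12 ± 0.19 log2) against a change of 0.02 log2 with it, a difference of 2.11 ± 0.28 (adjusted p = 0.00221). Ccn2 rose by 1.73 ± 0.12 log2 against 0.05, a difference of 1.68 ± 0.17 (adjusted p = 0.00016). Cdh11, a mesenchymal cadherin, rose by 1.24 ± 0.17 log2 in Pax7-/- and fell by 1.27 log2 in Pax7+/+ (adjusted p = 0.000273), a difference of 2.51 ± 0.24 (adjusted p = 0.00016). The zinc finger repressor Snai2, of neural crest and mesenchyme, changed by 1.01 ± 0.21 log2 in Pax7-/- (not called without either wide array, adjusted p = 0.0855 and 0.0668) and by -0.77 in Pax7+/+, a difference of 1.79 ± 0.30 (adjusted p = 0.0115). Of 13 smooth muscle and cytoskeleton genes 4 passed the test of the difference, all more positive in Pax7-/-. For Myl9, a myosin light chain named after its values were seen, the steps were 0.42 ± 0.21 log2, not called in Pax7-/-, and -1.54 in Pax7+/+ (difference 1.96 ± 0.30, adjusted p = 0.00572). Herpud1, an ubiquitin-like protein of the endoplasmic reticulum stress response, rose by 1.80 ± 0.20 log2 against a change of -0.37, a difference of 2.17 ± 0.29 (adjusted p = 0.00221).

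Some differences were of genes that fell by less in Pax7-/-. Tnc, the matrix glycoprotein tenascin C, changed by -1.28 ± 0.31 log2 in Pax7-/-, a call lost without any 1 of the 6 arrays, and by -4.09 in Pax7+/+, where it read 10.06, 9.73 and 10.59 log2 at day 0 and 5.71, 7.08 and 7.08 log2 at day 7. The difference was 2.81 ± 0.44 log2 (adjusted p = 0.00646). The chemokine Ccl2 and the cyclooxygenase Ptgs2 gave differences of 3.08 ± 0.62 and 2.58 ± 0.47 log2 (adjusted p = 0.0392 and 0.0225). Ccl2 lost this call in 9, and Ptgs2 in 8, of the 12 fits that left out an array. Of the 22 fibroblast and matrix genes 5 passed the test of the difference, all more positive in Pax7-/-, beside the list means given above, which within each array set were higher on the Pax7+/+ day 0 arrays than on those of the other 3 groups. Their part in these differences was not tested.

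The 2-cell-like state is a rare condition of cultured stem cells. None of its 18 genes passed in Pax7-/-, where all 18 changes were negative and the median was -0.33 log2. In Pax7+/+ 6 rose and 1 fell, with a median of 0.82 log2, and the difference passed for 2 of the 18, both Zscan4 genes. Zscan4e read 5.72, 9.12 and 5.74 log2 at day 0 and 4.98, 8.44 and 5.53 log2 at day 7 in Pax7-/-, and 4.47, 4.29 and 4.65 log2 and then 7.68, 9.89 and 9.93 log2 in Pax7+/+. The Pax7+/+ groups did not overlap, and the Pax7-/- groups did. The step difference of Zscan4e was -4.76 ± 0.94 log2 (adjusted p = 0.0336) and that of Zscan4d -3.07 ± 0.58 (adjusted p = 0.0258). Leaving out 1 array ended the call in 10 of 12 fits for Zscan4e and in 6 of 12 for Zscan4d. The Zscan4 genes are near-identical copies, so their probe sets may read each other's RNA.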

How the data were processed

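Biotin-labelled total RNA of 18 samples was measured on Affymetrix arrays, per the labels' protocols. The authors deposited a log2 intensity for each probe set and array. The submitters' processing notes name RMA and Partek, without versions. Of 41345 probe sets, 23521 had 1 gene symbol, 1814 several and 16010 none; symbols were updated by gene ID for the 23328 that matched RefSeq (GRCm38.p6). Each of 22180 genes was read from its brightest probe set on average (1082 genes had several).

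Arrays with an SD over all probe sets above 1.6 were called wide; what made them so is not given in the sources used here. limma 3.58.1 in R 4.3.3 fitted 6 group means and the array set to all arrays (11 residual degrees of freedom), with Benjamini-Hochberg adjustment over all genes. The script was tested on simulated data. Narrow and wide changes are plain differences of means. Alternatives covered the block, scaling, low-signal filters, probe choice, variance options, the threshold and each array left out.

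The comparison, the 45 gene lists (761 of 820 genes measured) and the tests were chosen with earlier results of these data known. Named genes were the 15 largest rises and 15 largest falls that passed without overlap within an array set, up to 5 passing genes of each list (2 with the smallest p where none passed) and the 5 largest step differences each way, leaving out predicted genes. Other genes were chosen after their values were seen.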

Additional observations from a re-analysis of the deposited data

Results flagged for a closer look

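In all, 30 of the named genes had a day 7 minus day 0 change that differed between Pax7-/- and Pax7+/+ by limma's test of the difference itself, with adjusted p from 0.00016 to 0.0392. Values are the Pax7-/- change minus the Pax7+/+ change in log2. Those described in the report were Zscan4e at -4.76, Zscan4d at -3.07, Zfp296 at -2.86, Lama1 at -2.30, Srgn at -2.29, Fbxo15 at -1.95 and Jam2 at -1.75 on the negative side. On the positive side they were Ccl2 at 3.08, Tnc at 2.81, Ptgs2 at 2.58, Cdh11 at 2.51, Herpud1 at 2.17, Ccn1 at 2.11, Myl9 at 1.96, Snai2 at 1.79 and Ccn2 at 1.68. Thbs1 differed by 1.52 and Mmp2 by 1.61, Hmga2 by 1.46, Igfbp4 by 1.30, Tpm1 by 1.14, Vegfa by 1.08 and Mef2a by 0.87. Genes not yet given a difference were the actin Acta2 (1.74), the metalloproteinase inhibitor Timp1 (1.94), the stress genes Atf3 (1.04) and Ddit4 (1.21), Perp (-1.13), Tmem92 (-2.37) and Pramel20 (-2.83).

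The gap between the genotypes was not on the same day for all. Srgn and Lama1 differed at day 0 by 2.07 and 2.38 log2 and at day 7 by -0.21 and 0.08 (Pax7-/- minus Pax7+/+). Pramel20 differed by 0.20 at day 0 and by -2.63 at day 7. Tnc, Cdh11, Ccn1 and Herpud1 were lower in Pax7-/- at day 0 (-1.50, -0.93, -0.90 and -0.88) and higher at day 7 (1.31, 1.58, 1.21 and 1.29). Of these 30 differences, 20 passed in all 12 fits that left out 1 array of the groups compared. The other 10 lost the call in some, Zscan4e in 10, Ccl2 and Acta2 in 9, Ptgs2, Pramel20 and Mef2a in 8, Atf3 in 7, Zscan4d in 6, Vegfa in 4 and Igfbp4 in 3.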

How the results depend on the processing

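The count of 857 genes depended on how the array set was handled, and the cause was not tested. It was 0 without a block, 532 with the set as a random block, 4072 with a mean per group and set, 3222 on wide arrays only, 1356 after quantile normalization, 357 at an adjusted p under 0.01 and 429 to 784 when 1 array was left out. Of the 532 all, and of the 3222 only 561, were among the 857. The 228 genes at 2-fold or more became 0, 481 and 1461 without a block, with a mean per group and set and on wide arrays only, and 170 to 242 when 1 array was left out. The 107 step differences became 0, 946, 62 and 464 without a block, with a mean per group and set, with a random block and on wide arrays only. They were 209 after quantile normalization, 258 with array weights, 40 at an adjusted p under 0.01 and 49 to 213 when 1 array was left out. Their share of more positive genes was 58.7% with a mean per group and set and 57.1% on wide arrays only.

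Residuals of same-numbered arrays correlated at -0.30 to -0.11 in Pax7-/- and at -0.18 to 0.10 in Pax7+/+. These values cannot tell whether replicate numbers pair the samples, because their sign followed the array set. Same-numbered Pax7-/- arrays were of the same set, and narrow Pax7-/- pairs of unlike number were negative too (-0.17 and -0.08). Pairs of a narrow and a wide Pax7-/- array lay at 0.13 to 0.24. With the replicate block beside the array set 694 genes passed the step, 678 of them among the 857, and 68 the step difference. For the 134 named genes that passed, none of 2944 alternative values changed sign, nor did any of 810 for the 30 step differences. These genes had passed in the same arrays that the alternatives used again, so these counts describe them and are no separate test. Leaving out 1 Pax7-/- array kept 79 of the 134 calls in all 6 fits. List medians changed sign or went to 0 on narrow arrays only for primitive streak (-0.03), neural crest (-0.05), fibroblast (0.06), Pax (-0.01), cholesterol (-0.01), Notch (0), paraxial mesoderm and myogenic (0) and BMP and Id genes (0). On wide arrays only this held for TGF-beta and Nodal (-0.01), immediate early (0.08), amino acid and ER stress (-0.03) and let-7 genes (-0.07), with a mean per group and set for immediate early (0.02) and amino acid genes (-0.01), and with median centring for endothelium (-0.01), cholesterol (-0.01) and amino acid genes (0). The endothelium median also went to 0 when each array was scaled to the same SD. With 3 arrays a group an exact permutation test of 1 gene cannot go below p = 0.1, and the number of arrays limits the precision.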

Other observations

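Signalling genes outside the groups above changed singly. Of 20 BMP and Id genes 2 rose and 2 fell. Id2, a helix-loop-helix inhibitor and BMP target, read 5.85, 8.22 and 5.77 log2 at day 0 and 7.53, 9.58 and 7.97 log2 at day 7 (1.75 ± 0.15, adjusted p = 5.08e-06), apart within each array set. The ligand Bmp4 fell by 1.22 ± 0.25 log2, not called without day 7 replicate 2 (adjusted p = 0.0671). The BMP antagonist Grem1 fell by 1.86 ± 0.43 log2 (-1.03 narrow, -3.53 wide, and -1.25 without day 0 replicate 2), a call lost in 3 of 6 fits that left out an array. In the LIF and Stat3 list Klf4, Klf5 and Tfcp2l1 fell, and the receptor subunits Lifr (0.51 ± 0.13 log2) and Il6st (0.62 ± 0.15) rose, though neither receptor call held without any 1 of the 6 arrays. The Wnt list had 1 rise among 20, the receptor Fzd2 (1.36 ± 0.21 log2), and the Notch list 1 among 17. These are shares of 5% and 5.88%, near the 3.86% of all genes. The Notch call, Notch1, was lost without any 1 of the 6 arrays (adjusted p = 0.0756 to 0.161). In the TGF-beta and Nodal list 2 of 18 rose and 2 fell.

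Surface and stress genes moved in both directions. Krt18, a keratin of simple epithelia, rose by 1.38 ± 0.22 log2 and the tight junction gene Cldn6 by 1.29 ± 0.20, while Perp, a desmosome protein, fell by 1.37 ± 0.13. These were the 3 calls among 21 epithelial genes. Among 23 amino acid and endoplasmic reticulum stress genes 5 rose and 3 fell. Cth, an enzyme of cysteine synthesis, fell by 1.64 ± 0.21 log2 and the amino acid transporter Slc7a3 by 1.33 ± 0.15. Of 19 immediate early genes 4 rose and 1 fell, and 6 passed the test of the difference between genotypes, all more positive in Pax7-/-. In the cholesterol and fatty acid list 3 of 19 rose and 1 fell, the elongase Elovl6 (-1.33 ± 0.21 log2). The lysosome list had 2 rises and 2 falls among 18. Ifitm3 (-1.13 ± 0.18 log2) was the only call among 18 interferon response genes. Trim71, a stem cell target of let-7, fell by 0.93 ± 0.14 log2. The primed epiblast list had 1 rise and 1 fall among 16, neural crest 1 rise among 15, trophoblast 1 rise among 15 and germ line 1 fall among 17. The share called was 6.67% for neural crest and for trophoblast and 5.88% for germ line, near the 3.86% of all genes. The germ line call, Stag3, was lost without day 0 replicate 2 (adjusted p = 0.281), among other arrays. Of 12 epithelial-mesenchymal regulators 3 rose.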
